A study of Mus musculus with 18 samples.

Results

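The 10 genes described here encode proteins for storing and translating germline mRNA and were followed through the mRNA-seq of mouse round spermatids (RS), the haploid germ cells that precede the elongating spermatid. They were chosen by name, as the rows for the Y-box proteins Ybx1, Ybx2 and Ybx3, the cytoplasmic polyadenylation element binding proteins Cpeb1, Cpeb2, Cpeb3 and Cpeb4, the DAZ family proteins Dazl and Boll, and the poly(A)-binding protein Pabpc1, which are 10 of the 54232 genes counted. The study asked how GRTH/DDX25, a testis-specific RNA helicase, acts in spermiogenesis, by comparing RS of WT mice with RS of GRTH knock-out (KO) and GRTH knock-in (KI) mice, all aged 75 to 85 days. KO mice lack GRTH, and KI mice carry a human GRTH gene with a missense change that leaves them without the phosphorylated form of the protein. RNA was prepared from RS enriched from whole testes on an albumin gradient, without selection for poly(A) tails, and each genotype had 6 libraries, 18 in all. The labels do not say which libraries came from the same animal or preparation, so p-values measure the spread between these libraries, which may be in part technical.

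Spermatids stop transcribing as the nucleus compacts, and the proteins of the late spermatid and sperm are made from mRNAs that were transcribed earlier and held back. Y-box proteins coat such mRNAs in the cytoplasm and keep them stable and untranslated. CPEB proteins bind U-rich elements in 3′ untranslated regions and set the length of the poly(A) tail, which Pabpc1 binds to promote translation, while Dazl and Boll bind 3′ untranslated regions through related RNA recognition motifs and promote translation in germ cells.

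All 10 mRNAs themselves carried a cytoplasmic polyadenylation element (CPE), searched as TTTTAT or TTTTAAT on the mRNA strand of the longest annotated 3′ untranslated region of each gene (GENCODE M21, GRCm38). At least 1 such match was found in 56.6% of the 21022 genes with a 3′ untranslated region. The number of matches was 1 in Ybx2, Ybx3 and Pabpc1, 2 in Ybx1, 4 in Cpeb1, 6 in Cpeb3 and Dazl, 7 in Boll, 17 in Cpeb4 and 24 in Cpeb2. Per kb of untranslated region the 10 genes held 1.68 to 6.35 matches, against a median of 0.654 over all those genes. The element nearest to the 3′ end is shown for the 3 genes that were called changed in KO and for Ybx2 and Ybx1, since the levels and shares of these genes carry the results that follow. Each is given 5′ to 3′ on the mRNA strand with the element in capitals.
Cpeb3, chr19:37021508-37021533, minus strand: aataaattaaTTTTATgatgctaatt
Cpeb4, chr11:31935408-31935433, plus strand: gtaattcattTTTTATtaaagtcatt
Dazl, chr17:50279754-50279779, minus strand: gtcaaaattcTTTTATgtcaccaagt
Ybx2, chr11:69941534-69941559, plus strand: tctgaagccaTTTTATgaactgtcat
Ybx1, chr4:119278052-119278077, minus strand: gaacttcatTTTTAATttgtaataaa
The Ybx2 element lay 56 bases and the Ybx1 element 81 bases from the annotated 3′ end, against 227 bases in Cpeb3, 211 in Cpeb4 and 369 in Dazl. A match describes the sequence and is not a measured binding site.

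Y-box proteins take their name from the promoter motif CTGATTGG, which was searched on both strands of 300-base promoters from RefSeq (GRCm38.p6, 250 bases before and 50 after each start). Of the 10 genes, 8 had at least 1 promoter in that set, and the full motif was found in 1 of them, Boll, against 4.10% of all 32851 promoters. Its core ATTGG, which lies within the full motif, was found in promoters of Ybx1, Ybx2, Cpeb4, Dazl and Boll, and in 37.4% of all promoters. Ybx2 and Boll each held the core in 1 of 2 promoters, and Cpeb3 in 0 of 3. The background shares are per promoter and the members are counted per gene, so they are not like for like. A promoter of Boll and one of Ybx2 are shown because the first holds the full motif and the other holds the core in 2 places. Capitals mark the motif as it reads on the strand of the gene, so that the Boll motif appears as its complement.
Boll, chr1:55362679-55362978, minus strand: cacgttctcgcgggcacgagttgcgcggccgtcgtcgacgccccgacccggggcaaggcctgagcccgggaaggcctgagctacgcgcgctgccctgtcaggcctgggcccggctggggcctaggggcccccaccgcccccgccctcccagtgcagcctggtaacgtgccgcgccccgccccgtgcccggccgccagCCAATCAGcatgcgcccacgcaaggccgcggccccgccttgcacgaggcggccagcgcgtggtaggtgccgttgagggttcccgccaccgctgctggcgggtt
Ybx2, chr11:69935649-69935948, plus strand: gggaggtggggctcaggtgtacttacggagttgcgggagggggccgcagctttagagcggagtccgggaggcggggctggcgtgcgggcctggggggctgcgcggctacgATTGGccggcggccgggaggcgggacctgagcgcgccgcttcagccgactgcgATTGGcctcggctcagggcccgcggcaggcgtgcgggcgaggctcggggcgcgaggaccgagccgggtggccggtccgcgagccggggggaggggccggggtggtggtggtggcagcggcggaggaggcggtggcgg
The Boll motif lay 53 bases upstream of the start site, and those of Ybx2 lay 140 and 87 bases upstream.

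The counts summed to between 18766971 and 26776555 per library. The targeted gene, Ddx25, had 538 to 607 counts scaled to library size (CPM) in WT, 47.7 to 90.9 CPM in KO and 0.0456 to 0.519 CPM in 5 of the KI libraries. The library labelled KI 4 had 56.9 CPM, a level within the KO range, so it goes against its label and the results of the 10 genes in KI are given with and without it. Several libraries lay close together. The median squared difference between their counts was 1.59 times that of counting error for KO 2 and the library labelled KI 4, and 2.05 to 3.24 times for WT 1 and 2, WT 3 and 4, WT 5 and 6, KO 4 and 5, KI 1 and 2, and KI 3 and 5, while every other pair reached at least 4.73. Close libraries may share a source and are not certain to be independent. The RS label was checked against marker genes. All 9 RS markers were tested, of which 2 were lower in KO and 5 in KI, or 4 in KI without the library labelled KI 4. Over all genes 13.5% were called lower in KO, 15.4% in KI and 15.8% in KI without that library. The summed levels of the RS markers were 792 to 1251 CPM in WT, 640 to 1217 CPM in KO and 611 to 879 CPM in KI. The 10 markers of elongating spermatids were all lower in both mutants. Their sums went from 15089 to 20936 CPM in WT to 1750 to 4443 CPM in KO and 2332 to 3596 CPM in KI. Of these 10, 8 are also counted below as mRNAs stored in RS, so they do not mark elongating cells alone. The 6 Leydig cell markers were all higher, from 9.76 to 19.7 CPM in WT to 29.9 to 52.0 CPM in KO and 13.4 to 66.1 CPM in KI. Without the library labelled KI 4, 5 of the 6 were. Over all genes 16.4% were called higher in KO, 16.1% in KI and 14.5% in KI without that library. Other somatic markers did not follow the Leydig cell markers. Of 7 Sertoli cell markers tested, none was higher, and 1 was lower in KO and 2 in KI. Markers of macrophages and of peritubular and endothelial cells moved both ways in each mutant. Because the RS were measured in bulk, fewer cells of a type and less RNA per cell cannot be told apart.

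Levels of the 10 genes were ordered per exonic length, as CPM per kb of exon (RPKM). In WT, Ybx2 was highest at 817 ± 123 RPKM (SD, n = 6), followed by Ybx1 at 403 ± 158, Pabpc1 at 305 ± 55.5 and Ybx3 at 294 ± 104. The ranges of these last 3 overlapped one another, while the lowest WT value of Ybx2, 668 RPKM, was above the highest of Ybx1, 627. Boll had 43.1 ± 7.99 RPKM and Cpeb2 33.2 ± 7.85, with overlapping ranges. Cpeb3 at 13.99 ± 2.10, Cpeb4 at 12.6 ± 1.03 and Dazl at 11.1 ± 0.932 RPKM also overlapped, and Cpeb1 was far below them at 0.446 ± 0.0786. Pabpc1, Ybx2, Ybx1 and Ybx3 ranked 19th, 31st, 62nd and 70th by CPM among the tested genes in WT. In the mutants Cpeb3 lay lower in this order, below both Cpeb4 and Dazl without overlap in KO, where the highest value of Cpeb3 was 6.76 RPKM and the lowest of Dazl was 12.2, and in KI, with 6.08 against 10.1 RPKM. The ranges of Ybx2 and Ybx1 over libraries overlapped in both mutants. Within every single library Ybx2 was still above Ybx1, most narrowly in KO 1, at 920 against 898 RPKM. Pabpc1 and Ybx1 have near copies in the genome (Pabpc2, Pabpc6 and the pseudogene Ybx1-ps2) and only uniquely assigned reads were counted, so their levels are uncertain.

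**Figure D1:**
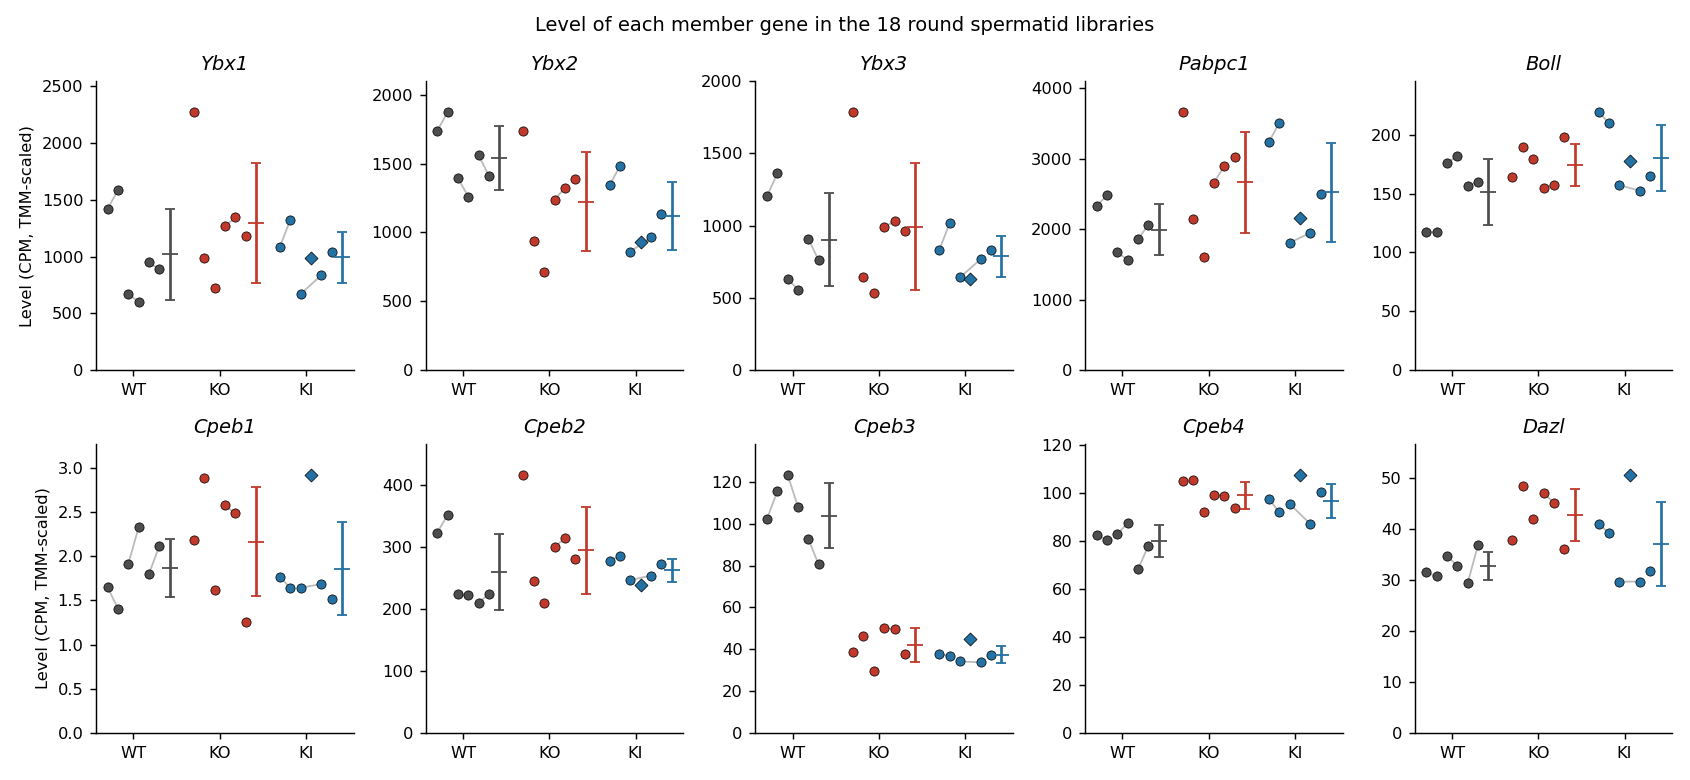
Level of each of the 10 genes in CPM (y axis, from 0) in every library, by genotype, with the mean and SD beside each genotype; grey lines join libraries that lie close together and the diamond is the library labelled KI 4. Cpeb3 separates WT (80.5 to 123 CPM) from KO and KI (29.8 to 50.1 CPM), whereas the Y-box genes, Pabpc1 and Cpeb2 spread widely within each genotype.

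Against WT, the edgeR test of whether a gene changed at all (quasi-likelihood F-test, Benjamini-Hochberg adjusted over 21058 genes, called at an adjusted p under 0.1) called 3 of the 10 genes in KO, with Cpeb4 and Dazl higher and Cpeb3 lower. Over all genes 16.4% were called higher and 13.5% lower in KO, so that 2 and 1 of 10 are near the background. In KI, Cpeb4 was called higher and Cpeb3 and Ybx2 lower, against 16.1% of all genes higher and 15.4% lower. Without the library labelled KI 4 the calls in KI were Cpeb4 and Cpeb3, against 14.5% higher and 15.8% lower. When libraries were scaled by their totals alone, 4 of the 10 genes were higher and 1 lower in each mutant, namely Boll, Cpeb4, Dazl and Pabpc1 higher and Cpeb3 lower. Under that scaling 24.8% of all genes were called higher and 10.2% lower in KO, against 26.7% and 11.8% in KI, and the median of all genes moved to 0.15 in KO and 0.20 in KI on the log2 scale. When close libraries were summed and treated as 1, which left 3 WT, 5 KO and 4 KI libraries, Cpeb3 was the only call among the 10 genes in both mutants, as it was with no filter on low counts. All 10 genes passed the filter on low counts.

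**Figure D2:**
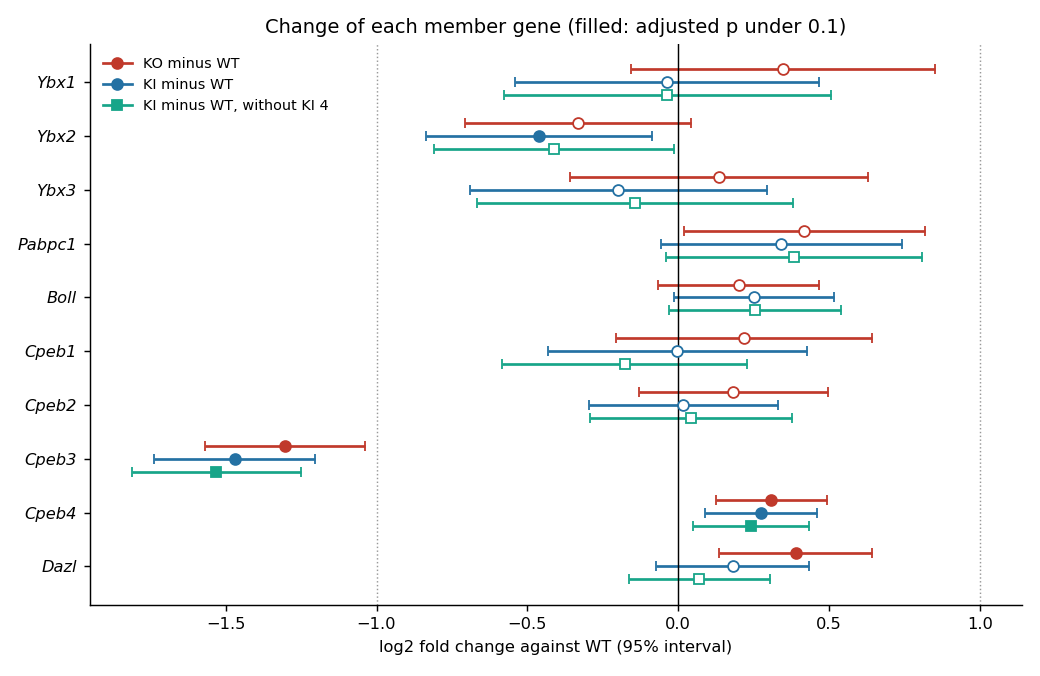
log2 fold change against WT (x axis) of each gene in KO, in KI and in KI without the library labelled KI 4, with 95% intervals; filled symbols were called at an adjusted p under 0.1. The intervals of Cpeb3 lie between -1.81 and -1.04, apart from those of every other gene, which stay within 1 log2 unit of 0.

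Cpeb3 was the member that changed most. It encodes a CPEB paralog that can repress translation of bound mRNAs, and lies at chr19:37021291-37208601 on the minus strand. In WT the 6 libraries had 102, 116, 123, 108, 92.6 and 80.5 CPM. In KO they had 38.5, 46.3, 29.8, 50.1, 49.6 and 37.6 CPM, and in KI 37.6, 36.9, 34.2, 45.0, 33.7 and 37.1 CPM, with the fourth of these from the library labelled KI 4. Every mutant library was therefore below every WT library, a pattern shown by 6.44% of genes in KO and 7.91% in KI. The log2 fold change was -1.30 ± 0.14 (SE, n = 6 and 6) in KO, with an adjusted p of 2.88e-07, which is a level 2.47-fold lower. In KI it was -1.47 ± 0.14, with an adjusted p of 4.32e-08, and without the library labelled KI 4 it was -1.53 ± 0.14. Tested against a change of 1 log2 unit (edgeR glmTreat), the fall was not called in KO, with an adjusted p of 0.616, and was called in KI at 0.0556. By that test 1.13% of all genes were lower in KO and 1.43% in KI. The KI call of more than 1 log2 unit rested on several single libraries: without any 1 of WT 2, 3 or 4 or KI 2, 3, 5 or 6 it was lost, with adjusted p of 0.102 to 0.239. The fall of any amount was called under all 27 other settings in both mutants, with log2 fold changes of -1.37 to -1.18 in KO and -1.53 to -1.32 in KI. The summed markers of elongating spermatids, of which 8 of 10 are also mRNAs stored in RS, fell in the same libraries, as given above. Their part in the fall of Cpeb3 was not tested.

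The gene with the most similar pattern to Cpeb3 over the 18 libraries was Skp2, an F-box protein of a ubiquitin ligase, with a Pearson correlation of log2 CPM of 0.990. The level of Skp2 was 120 ± 14.1 CPM in WT against 48.0 ± 9.39 in KO and 43.4 ± 8.70 in KI. Such correlations describe these libraries only, since they hold the differences between genotypes and between close libraries alike.

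Cpeb4 (chr11:31872211-31935634, plus strand), a paralog known for control of poly(A) tail length during the meiotic divisions, moved the other way by a small amount. Its CPM values were 82.8, 80.4, 82.9, 87.6, 68.3 and 78.1 in WT, 105, 105, 92.0, 99.3, 99.0 and 93.6 in KO, and 97.6, 92.0, 95.5, 108, 87.1 and 100 in KI. All KO libraries were above all WT libraries, as for 6.62% of genes, while in KI the lowest library, at 87.1 CPM, lay just under the highest of WT. No member was above WT without overlap in KI, where 5.97% of all genes were. The log2 fold change was 0.31 ± 0.09 in KO and 0.27 ± 0.09 in KI, with adjusted p of 0.0204 and 0.0371, and 0.24 ± 0.10 in KI without the library labelled KI 4, with an adjusted p of 0.0828. With close libraries summed neither rise was called, with adjusted p of 0.19 in KO and 0.199 in KI. Gm26628 was nearest to Cpeb4 in pattern with a correlation of 0.947, and had 3.08 ± 0.674 CPM in WT against 7.66 ± 1.203 in KO and 6.39 ± 1.98 in KI.

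Cpeb2 and Cpeb1 were not called in either mutant. Cpeb2 (chr5:43233170-43289724, plus strand), which binds CPE-bearing mRNAs and is known to slow their translation, had a log2 fold change of 0.18 (95% interval -0.13 to 0.50) in KO and 0.02 (-0.30 to 0.33) in KI, or 0.04 (-0.29 to 0.38) without the library labelled KI 4. Its values ran from 211 to 352 CPM in WT, 210 to 417 CPM in KO and 238 to 286 CPM in KI, and Sap130 was nearest in pattern with a correlation of 0.968. Cpeb1 (chr7:81347026-81455465, minus strand), the founding member that acts in meiotic germ cells and oocytes, was measured on only 29 to 70 reads per library. It had 1.41 to 2.33 CPM in WT and 1.26 to 2.88 CPM in KO. In KI it had 1.51 to 1.77 CPM in 5 libraries and 2.92 CPM in the library labelled KI 4. Its log2 fold change was 0.22 (-0.21 to 0.64) in KO and -0.003 (-0.43 to 0.43) in KI, or -0.18 (-0.58 to 0.23) without the library labelled KI 4. Gm31393 was nearest to it, with a correlation of 0.847.

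Dazl, an RNA-binding protein of premeiotic and meiotic germ cells that promotes translation, lies at chr17:50279394-50293599 on the minus strand. It had 31.6, 30.7, 34.7, 32.8, 29.4 and 36.8 CPM in WT and 37.8, 48.5, 41.9, 47.0, 45.1 and 36.0 CPM in KO. The lowest KO library overlapped the highest WT library. In KI it had 41.0, 39.2, 29.7, 50.6, 29.7 and 31.7 CPM, so that KI 1, KI 2 and the library labelled KI 4 stood above WT and the other 3 lay within it. The log2 fold change was 0.39 ± 0.13 in KO with an adjusted p of 0.0330, and 0.18 ± 0.13 in KI with an adjusted p of 0.349, or 0.07 ± 0.12 without the library labelled KI 4. Summed markers of spermatogonia were 32.4 to 44.0 CPM in WT and 36.1 to 76.1 CPM in KO, and 2 of the 8 tested were called higher in KO. KO 2 and the library labelled KI 4 had the highest sums, 76.1 and 77.6 CPM, and also the highest levels of Dazl. They were also the closest pair of all libraries, so they are not certain to be separate observations. The summed spermatocyte markers overlapped, at 1217 to 1723 CPM in WT and 1492 to 1805 CPM in KO. Single spermatocyte markers moved both ways in KO. Of 11, 3 were called higher and 2 lower, against 16.4% and 13.5% of all genes. The part of these cells in the level of Dazl was not tested. Taf1, a subunit of the general transcription factor TFIID, was nearest in pattern with a correlation of 0.978, and its level was 7.56 ± 1.16 CPM in WT against 12.1 ± 2.11 in KO and 9.52 ± 3.66 in KI.

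Boll (chr1:55248658-55363469, minus strand), the ancestral member of the DAZ family, which is needed for spermatid development in mice, was not called in either mutant. It had 117 CPM in WT 1 and 2 and 157 to 182 CPM in the other 4 WT libraries. KO values were 155 to 198 CPM and KI values 152 to 219 CPM, all above WT 1 and 2 and overlapping the others. The log2 fold change was 0.20 (95% interval -0.07 to 0.47) in KO and 0.25 (-0.02 to 0.52) in KI, or 0.25 (-0.03 to 0.54) without the library labelled KI 4. Without WT 3 it was called higher in KI, with a log2 fold change of 0.36 and an adjusted p of 0.0764. Pde8a was nearest in pattern, with a correlation of 0.968.

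The Y-box genes and Pabpc1 varied more within each genotype than between genotypes. Ybx1 (chr4:119277981-119294604, minus strand), the Y-box protein found in most tissues, had 1422, 1586, 674, 599.5, 949 and 888 CPM in WT. In KO it had 2274, 989.6, 727, 1267, 1345 and 1180 CPM, and in KI 1089, 1327, 671, 987, 837.5 and 1045 CPM. The highest and lowest WT libraries thus differed 2.65-fold and the KO libraries 3.13-fold, whereas the 6 pairs of close libraries within a genotype differed at most 1.25-fold. Its log2 fold change was 0.35 (95% interval -0.16 to 0.85) in KO and -0.04 (-0.54 to 0.46) in KI, or -0.04 (-0.58 to 0.50) without the library labelled KI 4. Ybx3 (chr6:131364855-131388476, minus strand), a Y-box protein that with Ybx2 coats germ cell mRNAs, ran from 558 to 1363 CPM in WT, 534 to 1787 in KO and 633 to 1018 in KI. Its log2 fold change was 0.13 (-0.36 to 0.63) in KO and -0.20 (-0.69 to 0.29) in KI, or -0.14 (-0.67 to 0.38) without the library labelled KI 4. The ranges of all 3 genotypes overlapped for both genes.

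Ybx2 (chr11:69935796-69941605, plus strand), the germ cell Y-box protein also called MSY2 and required for male fertility, had 1739, 1874, 1393, 1260, 1559 and 1411 CPM in WT. In KO it had 1734, 941, 709.6, 1235, 1326 and 1390 CPM, and in KI 1344, 1483, 861, 929, 964 and 1132 CPM. All 3 ranges overlapped. Its log2 fold change was -0.33 ± 0.19 in KO, not called with an adjusted p of 0.233, and -0.46 ± 0.19 in KI, called at 0.0839. The KI call was lost without the library labelled KI 4, at an adjusted p of 0.154, and without any 1 of WT 1, 2, 3 or 5 or KI 3, 5 or 6, with adjusted p of up to 0.175. In KO, Ybx2 was called lower once KO 1 was left out, with an adjusted p of 0.0824.

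Pabpc1 (chr15:36595661-36609668, minus strand), the main cytoplasmic poly(A)-binding protein, had 1559 to 2477 CPM in WT, 1605 to 3660 in KO and 1806 to 3505 in KI. Its log2 fold change was 0.42 ± 0.20 in KO and 0.34 ± 0.20 in KI, with adjusted p of 0.152 and 0.246, and without the library labelled KI 4 it was 0.38 ± 0.22 in KI, with an adjusted p of 0.220. Without KO 3 it was called higher in KO, with a log2 fold change of 0.53 and an adjusted p of 0.0519.

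**Figure D3:**
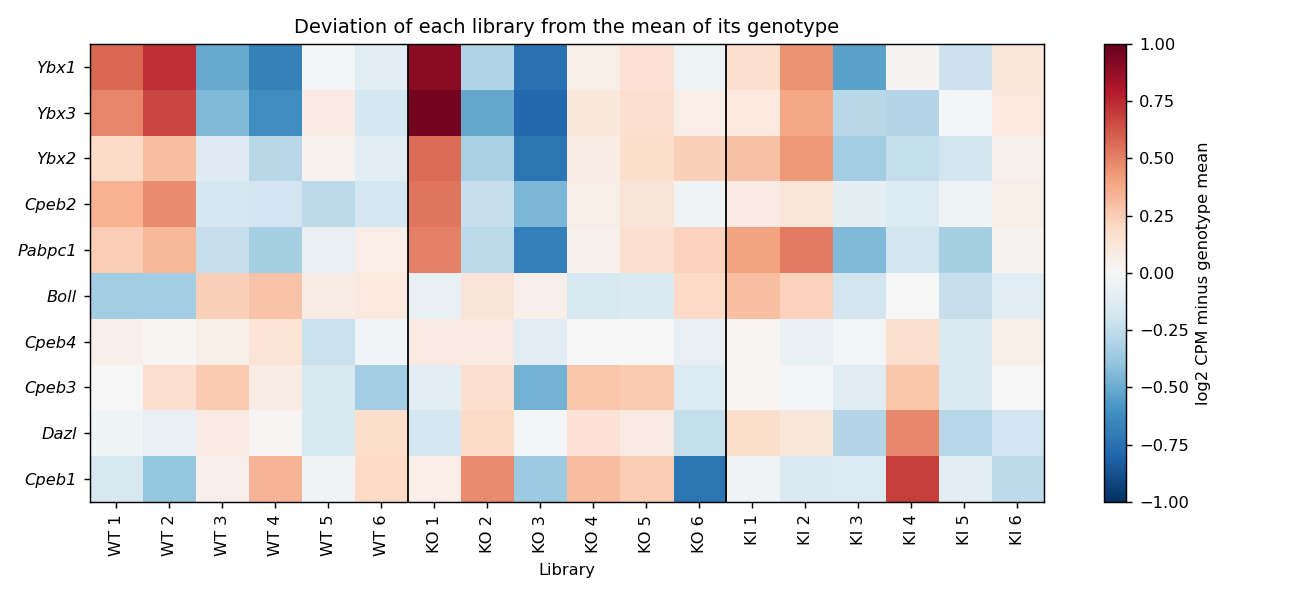
log2 CPM of each gene in each library minus the mean of its genotype, from -1 (blue) to 1 (red). Ybx1, Ybx3, Ybx2, Cpeb2 and Pabpc1 are high together in WT 1, WT 2, KO 1 and KI 2. They are low together in WT 3, WT 4, KO 3 and KI 3, while Dazl and Cpeb1 are high in the library labelled KI 4.

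The 5 genes Ybx1, Ybx2, Ybx3, Cpeb2 and Pabpc1 varied together across libraries. After the mean of each genotype was taken away, their pairwise correlations over the 18 libraries ran from 0.79 between Cpeb2 and Pabpc1 to 0.97 between Ybx2 and Pabpc1. Ybx1 and Ybx3 had a correlation of 0.96 in this comparison. KO 1 lay 0.96 log2 units above the KO mean for Ybx3 and 0.90 above it for Ybx1, and KO 3 lay 0.79 and 0.75 below. Cpeb3, Cpeb4, Dazl, Boll and Cpeb1 did not follow them: in the same comparison with Ybx1 their correlations ran from -0.41 for Boll to 0.20 for Cpeb3. KO 1 and KO 3, which deviated most, belong to none of the close pairs given above. In WT the spread of Ybx1 followed those pairs. It lay 0.57 and 0.73 log2 units from the WT mean in WT 1 and 2, and -0.51 and -0.67 in WT 3 and 4. Libraries of a close pair enter these correlations as separate points, which they may not be. The part of preparation or cell content was not tested. The genes nearest in pattern to these members were Ccdc181 for Ybx1 with a correlation of 0.970, Tesk1 for Ybx2 with 0.991, Lrrc27 for Ybx3 with 0.991 and Gemin5 for Pabpc1 with 0.987. Each of these genes varied within genotypes as well, as for Lrrc27, whose CPM was 271 ± 117 in WT, 285 ± 149 in KO and 221 ± 42.7 in KI.

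To set paralogs against each other within a library, the share of each paralog within its family was computed in every library from the counts divided by exonic length. In the Y-box family the share of Ybx1 ran from 21.8 to 30.4% in WT, with the highest values in WT 1 and WT 2, and from 30.7 to 37.4% in KO, with no overlap. The mean rose from 25.9 ± 3.72% (SD, n = 6) to 34.3 ± 2.21% (n = 6), with an adjusted p of 0.0130 (exact permutation test, two-sided, Benjamini-Hochberg adjusted over 24 tests and called under 0.1). In KI it was 31.5 ± 2.48%, with an adjusted p of 0.0390 by the same exact permutation test. KI libraries ran from 28.5 to 35.8% and overlapped WT. The level of Ybx1 was not called in either mutant, so its larger share does not show a rise in its level. Ybx2, the main Y-box mRNA of WT RS, fell as a share from 55.1 ± 5.65% in WT to 44.4 ± 3.33% in KO and 47.7 ± 1.83% in KI, with adjusted p of 0.0208 and 0.0390 by exact permutation tests. WT values of Ybx2 were 48.2 to 61.5%, KO values 38.3 to 48.6% and KI values 45.3 to 50.4%, so that WT 1 and WT 2 overlapped the mutants. Ybx3 had 19.01 ± 2.0% in WT, 21.3 ± 1.69% in KO and 20.8 ± 1.66% in KI, with adjusted p of 0.120 and 0.204 by exact permutation tests. Without the library labelled KI 4 the shares of Ybx1, Ybx2, Cpeb2, Cpeb3 and Cpeb4 in KI still differed from WT, with adjusted p of 0.0208 to 0.0480 by exact permutation tests. Shares of a family sum to 100%, so a fall in one member is a rise in the others.

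**Figure D4:**
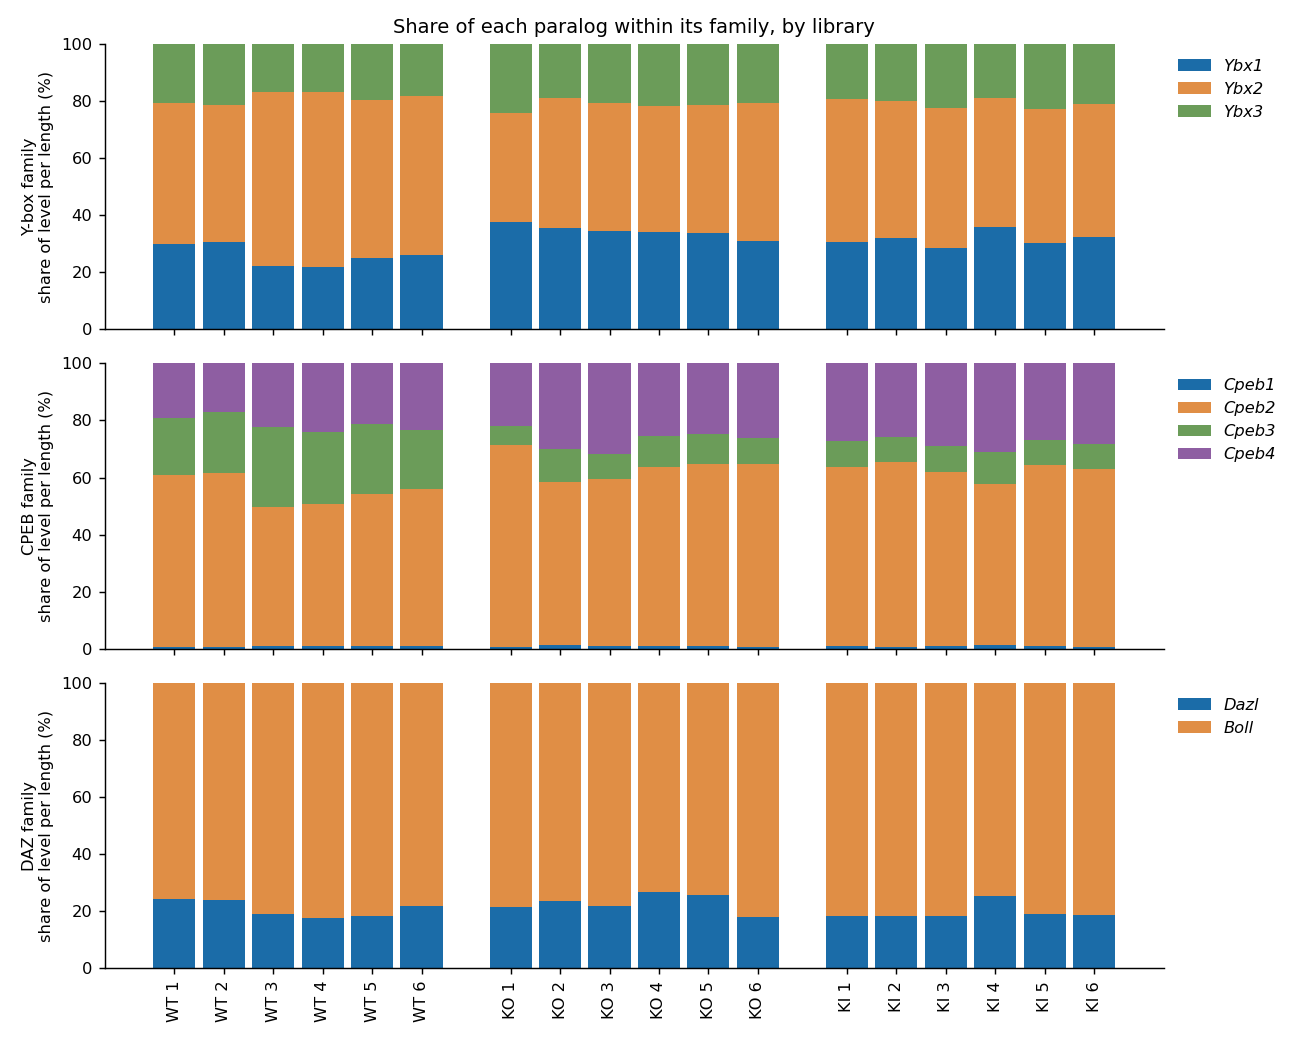
Share (y axis, in percent, from 0) of each paralog in the summed level per length of its family in each library, for the Y-box, CPEB and DAZ families. Ybx2 gives up share to Ybx1 in KO and KI, and Cpeb3 shrinks from 20.1 to 28.3% of the CPEB mRNA in WT to 6.87 to 11.4% in both mutants.

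In the CPEB family Cpeb2 held the largest share in every library, from 48.8 to 70.6%. Its mean share was 54.7 ± 5.23% in WT, 62.9 ± 4.70% in KO and 61.9 ± 3.01% in KI, with adjusted p of 0.0571 and 0.0519 by exact permutation tests. Cpeb3 fell from 23.4 ± 3.24% in WT to 9.62 ± 1.70% in KO and 9.30 ± 0.940% in KI, both with an adjusted p of 0.0130 by exact permutation tests. Cpeb4 rose from 21.1 ± 2.64% to 26.7 ± 3.62% in KO and 28.0 ± 1.97% in KI, with adjusted p of 0.0390 and 0.0130 by exact permutation tests. Cpeb1 held 0.456 to 1.29% in all libraries. In KO, Cpeb3 thus held 13.8 points less, Cpeb2 8.16 points more and Cpeb4 5.51 points more than in WT. The level of Cpeb2 was not called in either mutant, so its larger share does not show a rise in its level. Within the DAZ family Boll held 79.2 ± 2.86% in WT, 77.2 ± 3.15% in KO and 80.4 ± 2.82% in KI, with adjusted p of 0.406 and 0.634 by exact permutation tests. With close libraries summed, the shares differed by similar amounts. Ybx1 was higher by 8.50 points in KO and 6.31 in KI, and Cpeb3 lower by 13.9 points in KI. With 3 libraries against 5 the exact permutation test cannot go below 0.0357, and 0 shares had an adjusted p under 0.1.

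KI and KO were compared next, to see whether loss of the phosphorylated form alone differed from loss of the protein. None of the 10 genes was called between KI and KO by edgeR, with adjusted p of 0.961 or more, a comparison in which 0.0997% of all genes were called, and none had an unadjusted p under 0.05. DESeq2 also called none. The 95% intervals of the differences were -0.43 to 0.10 for Cpeb3, -0.22 to 0.15 for Cpeb4, -0.46 to 0.05 for Dazl and -0.89 to 0.12 for Ybx1, on the log2 scale. Without the library labelled KI 4 again none was called, with 0.522% of all genes called. Dazl then had the lowest p, with a log2 fold change of -0.32 ± 0.12 and an adjusted p of 0.408. Among the shares, that of Ybx2 was 3.32 points higher in KI than in KO, with an adjusted p of 0.0897 by an exact permutation test. Without the library labelled KI 4 the Ybx2 difference was 3.80 points and that of Ybx1 -3.63 points, and Boll held 4.29 points more in KI than in KO, with adjusted p of 0.0480, 0.0390 and 0.0480 by exact permutation tests. These calls depended on the choice of libraries, as given in the closing section.

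Genes that work with the 10 members were counted in 7 lists, of which the number that rose and fell in KO is read against the 16.4% and 13.5% of all genes. Among poly(A)-binding proteins and their partners, 3 of 10 tested rose and 2 fell, with a median log2 fold change of 0.33 against 0.03 over all genes. Pabpc5 rose most (0.80 ± 0.32, adjusted p 0.0786) from under 1 CPM, and Paip2, an inhibitor that removes the poly(A)-binding protein from the tail, fell most (-0.92 ± 0.15, adjusted p 0.000129). Paip2 had 216 to 285 CPM in WT, 77.7 to 174 in KO and 109 to 142 in KI. Every mutant library was below every WT library, as for 6.44% of all genes in KO and 7.91% in KI. Among factors of cytoplasmic polyadenylation and deadenylation, 3 of 26 rose and 4 fell, with a median of -0.02. Tob2, which recruits the deadenylase to mRNAs, rose most (0.82 ± 0.13, adjusted p 8.34e-05), and the poly(A) polymerase Tent5c fell most (-0.60 ± 0.17, adjusted p 0.0150).

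Among factors of repressed mRNPs and cap binding, 7 of 17 rose and 2 fell in KO, with a median of 0.23, and 4 rose and 2 fell in KI. Ddx6, a helicase of translationally silent mRNPs, rose most (0.76 ± 0.15, adjusted p 0.000845), from 31.4 to 53.1 CPM in WT to 62.2 to 81.7 CPM in KO. Eif4e, the protein that binds the mRNA cap and starts translation, fell most (-1.31 ± 0.12, adjusted p 3.21e-08). It had 201 to 253 CPM in WT, 84.9 to 99.3 CPM in KO and 82.3 to 121 CPM in KI, a fall of similar size to that of Cpeb3. Among partners of the DAZ family, a list that includes Dazl and Boll, 3 of 9 rose and 1 fell. Dzip3 fell most (-0.81 ± 0.15, adjusted p 0.000358).

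Of the cold-shock domain genes, a list of 8 that includes the 3 Y-box members, 1 rose and 1 fell. Lin28a, which marks undifferentiated spermatogonia, rose from 1.09 to 1.70 CPM in WT to 3.20 to 4.85 CPM in KO (1.504 ± 0.22, adjusted p 2.65e-05). The summed spermatogonial markers are given above with Dazl. Carhsp1, a small cold-shock protein that binds mRNA, fell from 71.2 to 112 CPM in WT to 16.6 to 61.7 CPM in KO and 23.8 to 42.7 CPM in KI (-1.21 ± 0.22 in KO, adjusted p 0.000312). Among the other germ cell RNA-binding proteins, 18 of 34 rose and 2 fell in KO, with a median of 0.35, and 17 rose and 3 fell in KI, or 17 and 4 without the library labelled KI 4. Igf2bp2 rose most (1.13 ± 0.26, adjusted p 0.00307) at a low level of 0.425 to 2.49 CPM, and Fxr1, which activates translation of stored mRNAs in spermatids, fell most (-0.89 ± 0.18, adjusted p 0.000886), from 859 to 1064 CPM in WT to 316 to 714 CPM in KO. The part of spermatogonia or other cells in these rises was not tested.

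The mRNAs known to be stored in RS were the list with the most falls. The list was chosen with earlier results of these data known. The study had itself reported Tnp1, Tnp2, Prm1 and Prm2 as lower in both mutants, and Smcp, Gapdhs and Akap4 as lower in KO. It also listed Odf1 among the changed genes of both mutants, so the falls are not an independent result. Of 10, 9 fell and none rose in KO and in KI, with medians of -2.05 and -2.25. By more than 1 log2 unit 8 fell in each, against 1.13% of all genes in KO and 1.43% in KI. Prm2, a protamine of the sperm nucleus, fell most (-3.36 ± 0.22, adjusted p 3.11e-10), from 4718 to 6800 CPM in WT to 255 to 781 CPM in KO and 394 to 568 CPM in KI. Pgk2 fell by 1.24 ± 0.24 on the log2 scale, and Acr, which encodes the acrosomal protease acrosin, was not called, at 0.05 in KO and -0.01 in KI. The other mRNAs past 1 log2 unit were Prm1, Gapdhs, Tnp2, Akap4, Smcp, Odf1 and Tnp1, at -2.59 to -1.78 in KO. Of the 10, 8 are also markers of elongating spermatids, so the 2 lists are not separate evidence. In the same libraries the Y-box mRNAs changed far less, from -0.33 for Ybx2 to 0.35 for Ybx1 in KO and from -0.46 for Ybx2 to -0.04 for Ybx1 in KI.

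**Figure D5:**
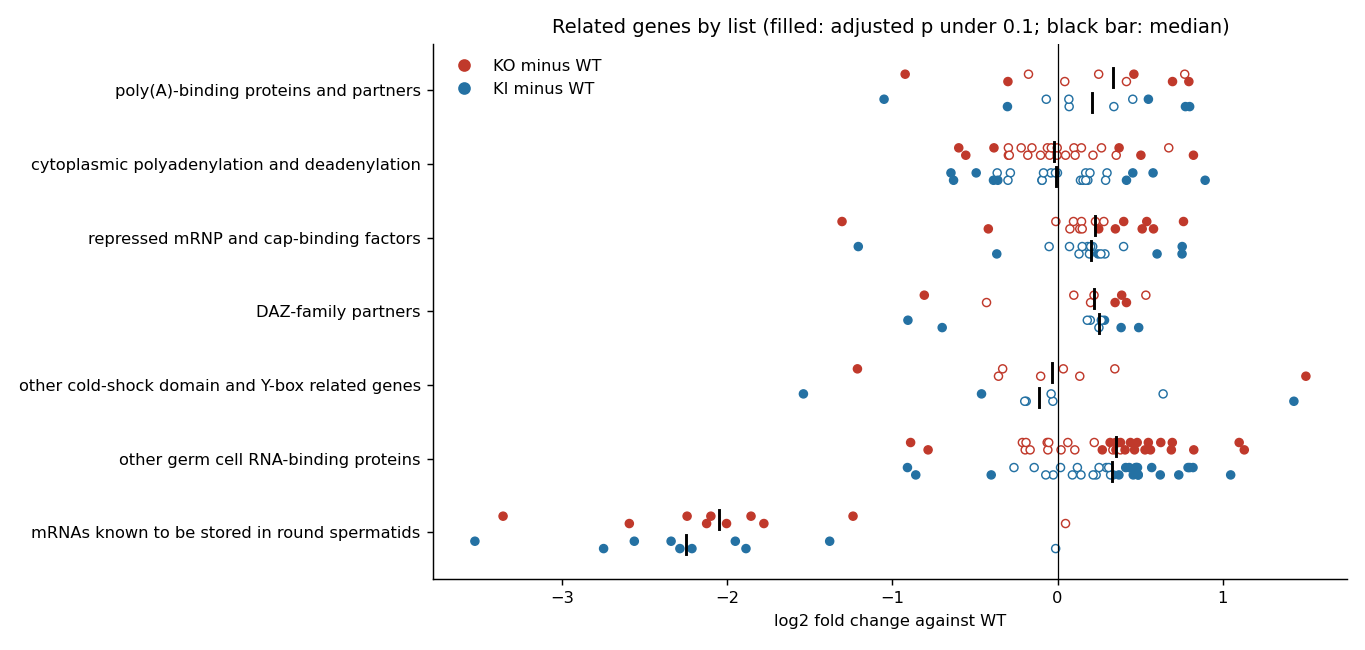
log2 fold change against WT (x axis) of every tested gene of the 7 lists in KO and KI, with called genes filled and the median of each list as a black bar. The stored mRNAs lie between -3.53 and -1.24 apart from Acr, while the other lists have medians between -0.11 and 0.35.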

How the data were processed

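RNA of enriched RS was sequenced without poly(A) selection. The authors trimmed reads with cutadapt 3.4, aligned them with STAR 2.7.8a to GRCm38 and counted fragments by strand over GENCODE M18 genes with featureCounts of Subread 2.0.1, and deposited the raw counts per gene, which are the values used here. Reads shared by near copies were not counted. Groups follow the labels. Depth was 18766971 to 26776555 counts per library, so 3 counts, taken as the floor, are 0.112 to 0.160 CPM, and this covers counting error only.

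Genes were filtered with filterByExpr, scaled by TMM and fitted on all 18 libraries with genotype as the term in edgeR 4.0.16 (R 4.3.3). The quasi-likelihood test asked for a change of any amount and glmTreat for more than 1 log2 unit (worst-case null), at a Benjamini-Hochberg adjusted p under 0.1 over 21058 genes. Intervals are 1.96 SE either way. CPM and RPKM use the TMM scaling. Shares were compared by two-sided exact permutation tests (scipy 1.17.1). The steps were tested on simulated counts. DESeq2 1.42.0, other scalings and filters, each library left out, a replicate block and summed close libraries were alternatives, and the interval form of the glmTreat null was added after seeing the data.

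The members and lists were chosen with earlier results of these data known. Genes named beside the 10 are, for each, the gene of highest correlation over the libraries and, from each list, the genes past 1 log2 unit and the called genes with the largest rise and fall in KO. Paip2, Eif4e and the others named from lists follow this rule, and 1 gene that it names is not reported here. No protein sequence was used here.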

Additional observations from a re-analysis of the deposited data

Results flagged for a closer look

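Among 54 groups of 6 libraries (levels and family shares of the 10 genes in each genotype), 5 had a highest or lowest library set apart from the rest by a gap larger than Dixon's 95% critical value, where chance flags about 1 group in 20. All 5 were in KI, and in each the library set apart was the one labelled KI 4. It had the highest Cpeb1 level, 2.921 CPM, against 1.51 to 1.77 CPM in the other 5 KI libraries, and the highest Cpeb3 level, 45.04 CPM, against 33.7 to 37.6 CPM. Its share of Cpeb1 within the CPEB family was 1.286% and its share of Cpeb3 was 11.22%, both the highest in KI. Its share of Boll within the DAZ family was the lowest, at 74.62%. The KO libraries ran from 1.26 to 2.88 CPM for Cpeb1 and from 29.8 to 50.1 CPM for Cpeb3, and their shares from 0.535 to 1.25% for Cpeb1, 6.87 to 11.4% for Cpeb3 and 73.4 to 82.2% for Boll. The Ddx25 level of this library was also within the KO range, and its counts lay close to those of KO 2.

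The share of Ybx2 in the Y-box family differed between the mutants, with 3.317 points more in KI than in KO and an adjusted p of 0.0897 by an exact permutation test with 6 libraries each. The difference kept its direction in all 22 alternatives, from 2.11 to 4.15 points, and was past the threshold in 10 of them. Leaving out a WT library does not alter the shares of KI and KO, so those alternatives, which kept the call, do not check this difference. It was lost without KO 1, 2, 3, 4 or 5 or KI 1, 2, 3, 5 or 6. Among single KI and KO libraries, the call was kept only without KO 6 or the library labelled KI 4.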

How the results depend on the processing

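Among the 10 genes, the falls of Cpeb3 in KO and KI kept their direction and their call under all 27 alternatives. Cpeb4 was called in 24 of 27 in each mutant, Dazl in KO in 24 of 27 and Ybx2 in KI in 15 of 27. Some of the 27 left out a library of the genotype not compared and are a weak check. For Ybx1 in KO, the log2 fold change went from 0.347 to at most 0.348 without a KI library. Against 3 calls in each mutant, scaling by library totals alone gave 5, and no filter on low counts, or close libraries summed, with or without the library labelled KI 4, gave 1. The call of Cpeb3 past 1 log2 unit in KI went from 1 to 0 under library totals alone, no filter, both summed settings and an adjusted p under 0.05, and ran from 0 to 1 as single libraries were left out. With the interval form of the null, chosen after seeing the data, the adjusted p was 0.149 in KO and 0.0104 in KI. Close libraries summed left 0 shares past the threshold in KO, in KI and between KI and KO, against 5, 5 and 1, where the smallest p possible is 0.0357 for KO, 0.0571 for KI and 0.0159 between KI and KO. Leaving out single libraries gave 0 to 3 share calls between KI and KO. In the lists of related genes, calls of higher genes went from 35 to 17 or 16 in KO and from 32 to 20 or 13 in KI, and of lower genes from 25 to 16 or 15 in KI, with close libraries summed, with and without the library labelled KI 4. Without it, 5 in place of 8 were past 1 log2 unit in KI. The summed settings hold fewer libraries, and the cause of the other changes was not tested.

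Changes of direction were all in values that were not called. For Ybx1 in KI the log2 fold change was 0.0978 under library totals and 0.0109 with close libraries summed without the library labelled KI 4. For Cpeb1 in KI it was 0.0095 with DESeq2, 0.0079 with its size factors, 0.1368 with library totals, 0.0154 with no filter, 0.0054 with at least 10 counts, 0.0354 with only the genotypes compared and 0.0677 with close libraries summed. For Cpeb4 between KI and KO it was 0.0057, 0.0055, 0.0218, 0.0271 and 0.0124 with DESeq2, its size factors, no filter, only the genotypes compared and close libraries summed. For Pabpc1 between KI and KO it was 0.0153 with close libraries summed without the library labelled KI 4, where the Cpeb1 share in KI differed from WT by -0.0526 points and the Cpeb2 share between KI and KO by 0.114. The Cpeb3 share between KI and KO differed by 0.1105 points with close libraries summed. With single libraries left out, log2 fold changes ran from -0.1537 to 0.1305 for Ybx1, -0.1781 to 0.069 for Cpeb1 and -0.0378 to 0.1224 for Cpeb2 in KI, and from -0.1169 to 0.2894 for Ybx3 in KO. Between KI and KO they ran from -0.0689 to 0.0343 for Cpeb4, -0.0141 to 0.1122 for Boll and -0.193 to 0.0363 for Pabpc1. Share differences ran from -0.0386 to 0.0955 points for Cpeb1 in KI, and between KI and KO from -0.9917 to 0.0299 for Ybx3, -0.1509 to 0.0177 for Cpeb1, -2.0901 to 0.5808 for Cpeb2 and -0.8704 to 0.0285 for Cpeb3.

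Replicate numbers did not pair the libraries: correlations of same-numbered deviations ran from -0.26 to 0.295 for WT and KO and from -0.44 to 0.356 for WT and KI, over 0.1 in 2 of 6 pairs each, and from -0.096 to 0.481 for KO and KI, over 0.1 in 3 of 6. With the replicate block 4 members were called in KO, with Pabpc1 added, and 3 in KI, and Ybx1 in KI was at 0.0119. Depth was lowest for Cpeb1, with 29 to 70 counts per library, although its SE in KO, 0.216, was below that of Ybx1, 0.257.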
